A study of Mus musculus with 6 samples.

Results

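The 37 genes described here belong to families that make, break down or receive cyclic AMP, although some of the phosphodiesterases do not hydrolyse it. They are 21 phosphodiesterase genes, 10 adenylate cyclase genes and 6 subunits of protein kinase A (PKA). They were chosen by symbol, as the Pde genes with a number and a letter from a to d, the numbered Adcy genes and all Prkac and Prkar genes, among 18193 genes read by a probe set with exactly 1 symbol. They have 96 probe sets among 45037, and each gene is represented by its brightest probe set, judged by the mean over all 6 arrays. Mouse mesenchymal stem cells, a commercial primary culture, were read on Affymetrix arrays in 3 experiments. The irradiated group was 3 cultures exposed for 2 h to a continuous terahertz laser (2.52 THz, wavelength 118.8 µm). The control group was 3 cultures, 1 beside each irradiated one, kept at the same 26 to 27 °C without exposure. All 6 cultures had received 1 µM rosiglitazone, 5 µg/ml insulin, 100 µM isobutylmethylxanthine and 1 µM dexamethasone 48 h earlier, and RNA was taken when the exposure ended. The question was which transcripts change in a culture under the laser relative to the one beside it. No culture without isobutylmethylxanthine was compared.

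Adenylate cyclases turn ATP into cyclic AMP when receptors coupled to the stimulatory G protein are active. Cyclic AMP binds the regulatory subunits of PKA and frees the catalytic subunits, which phosphorylate enzymes and the transcription factor CREB. Phosphodiesterases end the signal by hydrolysing cyclic AMP, cyclic GMP or both. Isobutylmethylxanthine blocks most phosphodiesterases, the Pde8 and Pde9 families being the known exceptions, and is part of the usual mixture that drives precursor cells towards fat cells. In fat cells the pathway controls lipolysis, and insulin opposes it in part through the phosphodiesterase encoded by Pde3b.

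CREB binds the cyclic AMP response element TGACGTCA, so the promoter windows of these genes were searched for it, to show which of them carry it beside the levels below. RefSeq windows (build GRCm38.p6, 250 bases before to 50 after an annotated start) were given for 29 of the 37 genes, 66 windows in all. Both strands were searched for the whole element (a palindrome) and for its 5-letter core TGACG or CGTCA, which the whole element also contains. The whole element was found for 1 gene, Prkar1a, in 2 overlapping windows, 3.03% of the 66 windows against 1.79% of all 32851 windows. The core was found in 15 windows of 13 genes, 22.7% of the windows against 20.8% of all. Among genes with a window, it was found for 11 of 19 (57.9%) at or above the median gene level and 2 of 10 (20.0%) below it. Over all measured genes with a window the shares were 37.9% of 7469 and 21.6% of 6983. The 19 genes had 2.37 windows each on average and the 7469 genes 1.29, so the shares are not over equal lengths searched. The following are the Prkar1a window at chr11:109650699-109650998 (plus strand), with the element in capitals from position -49, and, from the windows of 5 other genes, stretches of 35 bases around a core in capitals. The stretches lie at chr8:83972957-83972991 for Prkaca, chr9:108692124-108692158 for Prkar2a, chr9:21184036-21184070 for Pde4a, chr4:102421506-102421540 for Pde4b and chr7:81213166-81213200 for Pde8a, all on the plus strand. Prkaca has a second core, at chr8:83972843-83972877 and not printed. The Prkar1a window holds another one, left in lower case. These letters describe the windows and do not show binding.
Prkar1a: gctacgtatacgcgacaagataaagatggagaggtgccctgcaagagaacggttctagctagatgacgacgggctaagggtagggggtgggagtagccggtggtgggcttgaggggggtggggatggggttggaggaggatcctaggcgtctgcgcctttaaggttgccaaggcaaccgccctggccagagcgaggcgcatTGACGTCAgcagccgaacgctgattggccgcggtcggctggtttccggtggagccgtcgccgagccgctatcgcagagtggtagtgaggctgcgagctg
Prkaca: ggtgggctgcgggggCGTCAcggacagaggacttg
Prkar2a: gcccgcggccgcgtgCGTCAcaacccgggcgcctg
Pde4a: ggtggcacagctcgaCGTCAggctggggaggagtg
Pde4b: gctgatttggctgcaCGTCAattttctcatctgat
Pde8a: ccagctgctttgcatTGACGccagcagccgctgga

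The medians of the 6 arrays ranged from 5.01 to 5.05 (log2), and with so few arrays the precision is limited. Markers of stromal cells (10 of 11 at or above the median gene), fat cells (13 of 14) and macrophages (10 of 11) were all bright. The fat cell markers averaged 9.76 to 10.14 in irradiated cultures and 9.93 to 10.32 in controls, and the macrophage markers 10.63 to 11.25 in irradiated cultures and 10.78 to 11.08 in controls. Endothelial markers were dim (0 of 5 at or above the median gene). Smooth muscle markers (3 of 5) averaged 7.78 to 7.92 in irradiated cultures and 7.43 to 8.05 in controls, and osteoblast markers (2 of 3) 7.78 to 8.10 in irradiated cultures and 7.34 to 8.21 in controls. The stromal surface marker Thy1 was at 3.88, below the median gene, unlike the other stromal markers. Which cells each transcript came from was not tested, and fewer cells of a type cannot be told apart from less RNA per cell. In the control of experiment 3 the 3' probe set of actin exceeded the 5' one by 0.68, where the other arrays had 0.50 to 0.57. For Gapdh the same difference was 0.11 in that control and -0.10 to -0.08 in the other arrays.

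Of the 37 genes 22 were at or above the median gene, whose level was 6.46 on the RMA log2 scale: 10 of 21 phosphodiesterases, 6 of 10 adenylate cyclases and all 6 PKA subunits. Of all 18193 genes 9099 were at or above it by construction. Just inside was Pde1a, a calcium-dependent phosphodiesterase, at 6.545, and just outside was its relative Pde1b at 6.03. Of the 22 genes 21 were at or above each array's own median gene in all 6 arrays. Because probes differ in how well they bind, such a level is no ratio of RNA amounts between genes. Detection calls were not used, so no gene is called absent.

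**Figure D1:**
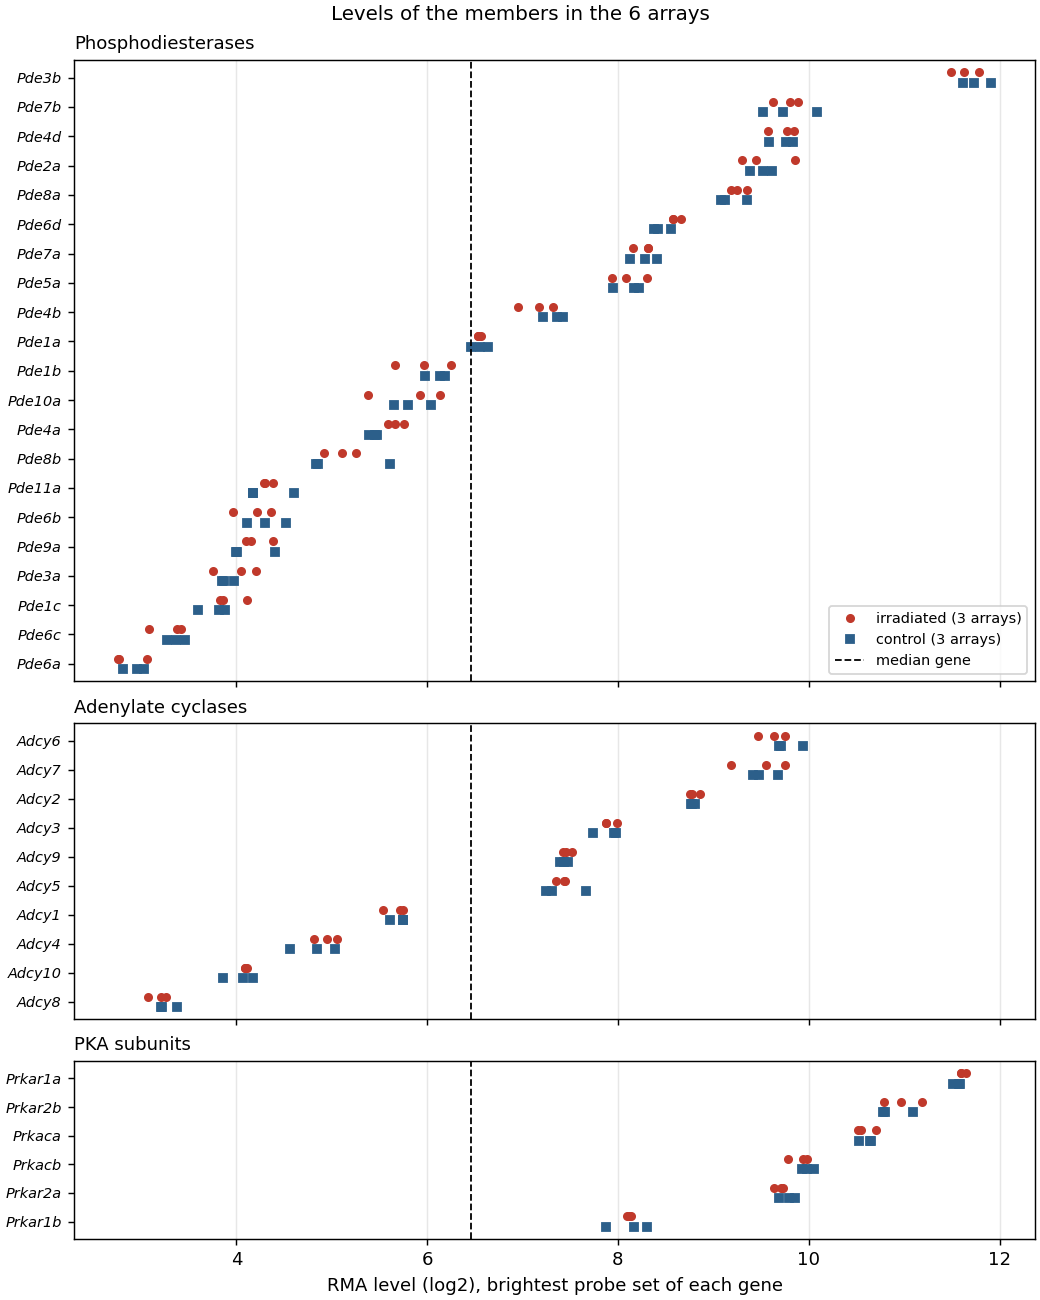
RMA log2 level of each gene (x axis) in the 3 irradiated arrays (red circles, upper) and the 3 control arrays (blue squares, lower), by family and ordered by mean level, with the median gene at 6.46 as a dashed line. All 6 PKA subunits lie right of the line, and the 2 groups overlap for 34 of the 37 genes.

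Among the adenylate cyclases, Adcy6, an isoform that calcium inhibits, had a mean level of 9.70, Adcy7 of 9.51, Adcy2 of 8.79, Adcy3 of 7.90, Adcy9 of 7.45 and Adcy5 of 7.41. Adcy1 (5.69), Adcy4 (4.88), Adcy10 (4.07), the soluble bicarbonate-activated enzyme, and Adcy8 (3.23) were below the median gene. Adcy1 and Adcy8 are the calcium-stimulated isoforms known from nerve cells. The place of Adcy5 rested on 1 probe set whose name ends in _x_at, which marks probes that may also bind other transcripts. Its other 3 probe sets had levels of 5.55, 3.74 and 2.96, all below the median gene. Adcy7 stayed at or above it on all 3 of its probe sets (6.51, 7.56 and 9.51).

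Grouped by the nucleotide they hydrolyse, 5 of 7 phosphodiesterases specific for cyclic AMP were at or above the median gene, against 1 of 5 specific for cyclic GMP and 3 of 8 that hydrolyse both. The remaining gene, Pde6d, encodes a carrier of prenylated proteins first found as a subunit of the retinal enzyme, and had a level of 8.53. The cyclic AMP enzymes at or above it were Pde7b (9.78), Pde4d (9.73), Pde8a (9.22), Pde7a (8.27) and Pde4b (7.24), with Pde4a (5.55) and Pde8b (5.10) below. Of those for both nucleotides, Pde3b (11.69) and Pde2a (9.52), which cyclic GMP stimulates, were above with Pde1a. Pde1b, Pde10a (5.82), Pde11a (4.32), Pde3a (3.95) and Pde1c (3.85) were below. Of the cyclic GMP enzymes Pde5a, the target of sildenafil, was at 8.11. Below the median gene were the retinal Pde6b (4.25), Pde6c (3.33) and Pde6a (2.90), and Pde9a (4.18).

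Of the 17 phosphodiesterases that isobutylmethylxanthine is known to inhibit, 8 were at or above the median gene, and of the 3 it hardly inhibits, 1 was. That gene, Pde8a, had 9.18, 9.35 and 9.25 in irradiated cultures and 9.35, 9.08 and 9.12 in controls, so the groups overlapped. Its second probe set was at 4.91, on the other side of the median gene. Pde3b, with 1 probe set, had 11.78, 11.49 and 11.63 in irradiated cultures, against 11.73, 11.91 and 11.62 in controls. It was at the 97.4th percentile of all genes, the highest of the 37 on this scale.

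Both catalytic PKA subunits and all 4 regulatory ones were at or above the median gene. Prkar1a, the type I regulatory subunit alpha, was at 11.59. Prkar2b, the type II subunit known from fat and nerve cells, was at 10.94, Prkar2a at 9.74 and Prkar1b at 8.12. The catalytic subunits Prkaca and Prkacb were at 10.60 and 9.95. Prkaca was read by an _x_at probe set. Its other one had a level of 7.53, still above the median gene.

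Where a gene had several probe sets, they often disagreed on its place. Of the 24 genes with several probe sets, 14 had some on each side of the median gene. Those of Pde4d were at 9.73 and 2.27, and those of Prkacb at 9.95, 4.84 and 2.32. With only probe sets whose name ends in neither _s_at nor _x_at, an alternative chosen after seeing the data, 21 of the 37 genes were at or above the median gene, then at 6.30. The gene that dropped out was Adcy5.

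**Figure D2:**
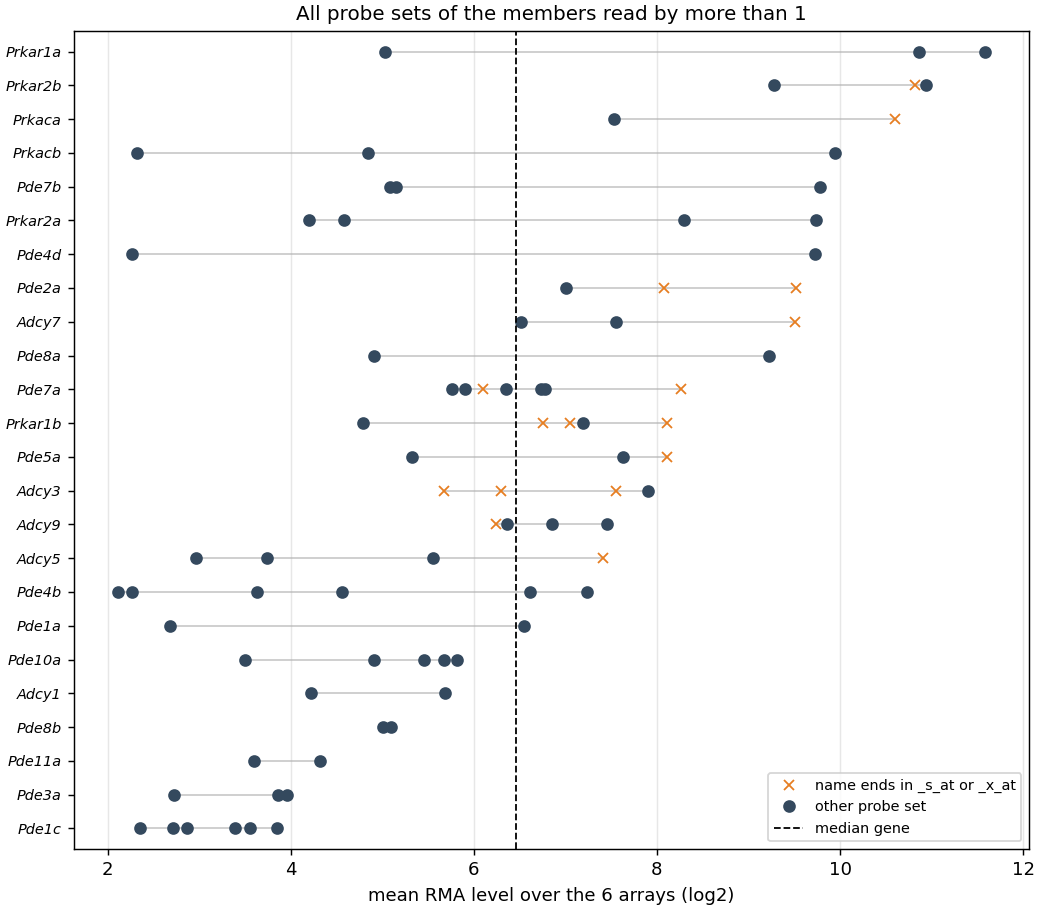
Mean RMA log2 level over the 6 arrays (x axis) of every probe set of the 24 genes read by more than 1, with probe sets whose name ends in _s_at or _x_at as orange crosses and the others as dark circles. The dashed line is the median gene at 6.46, and 14 of the genes have probe sets on both sides of it.

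None of the 37 genes passed the test for a difference under the laser. The fit (limma, blocked by experiment) called 0 of the 37 at an adjusted p under 0.05, where it called 0.0% of all 18193 genes, and every adjusted p was 0.995. At an unadjusted p under 0.05 it gave 1 of the 37, Pde4a, against 3.31% of all genes. The median difference (irradiated minus control) was -0.0067 log2 units over the 37 genes and -0.01 over all genes, and 17 of the 37 were above 0. By family the medians were 0.005 for adenylate cyclases, -0.0067 for phosphodiesterases and -0.005 for PKA subunits. The 95% interval of every one of the 37 lay within 0.50 log2 units of 0, or 1.41-fold. These intervals are per gene, not adjusted for the number of genes, and bound changes of RMA values. RMA tends to understate changes of dim probe sets.

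The difference kept its sign in all 3 experiments for 7 of the 37 genes. It was above 0 for 4 (Pde4a, Pde6d, Pde1c and Prkar1a), against 8.23% of all genes, and below 0 for 3 (Pde4b, Prkacb and Prkar2a), against 12.8%. The 2 groups did not overlap for 3 of the 37, with irradiated cultures higher, against 2.9% of all genes. For 0 of the 37 were irradiated cultures lower without overlap, against 5.36%.

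**Figure D3:**
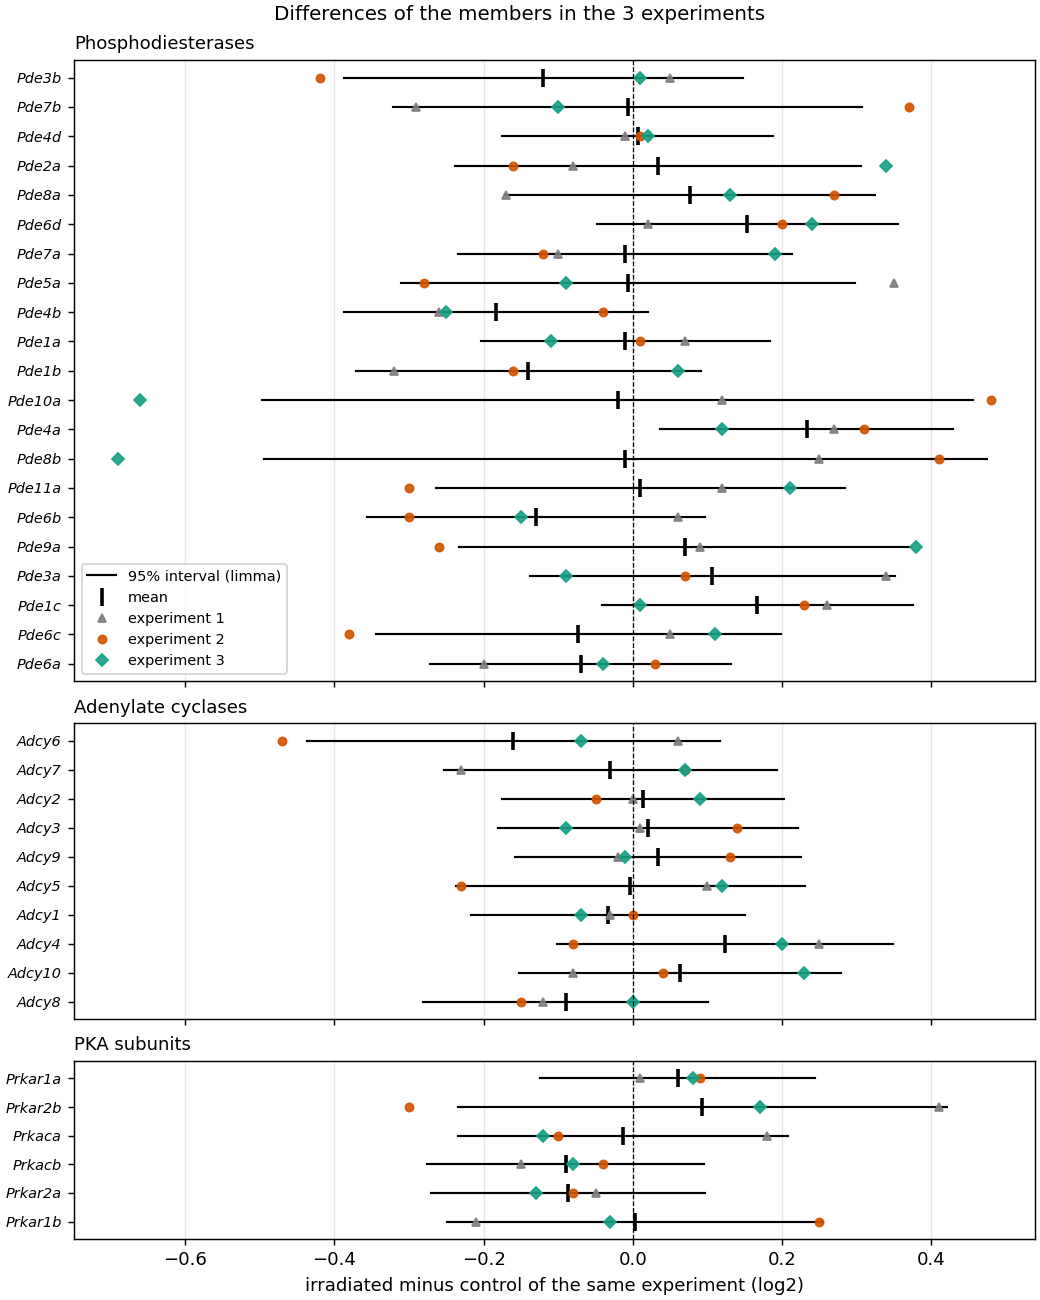
Irradiated minus control of the same experiment (x axis, log2 units) for each gene, with 1 symbol per experiment, the mean as a tick and limma's 95% interval as a line. The interval of 36 of the 37 genes holds 0, and that of Pde4a lies above it.

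Pde4a, a phosphodiesterase specific for cyclic AMP, is described because of its unadjusted p, so it was picked on its outcome. It had 5.66, 5.76 and 5.59 in irradiated cultures, against 5.39, 5.45 and 5.47 in controls. All 3 irradiated arrays were above all 3 controls, with a mean difference of 0.23 log2 units (SE 0.082, interval 0.037 to 0.43, n = 3 pairs). Its adjusted p in limma was 0.995, and its only probe set lies below the median gene. In the same subfamily Pde4b, an isoform known from immune cells, had 6.95, 7.32 and 7.17 in irradiated cultures and 7.21, 7.36 and 7.42 in controls. It differed by -0.18 (SE 0.085, n = 3 pairs), at an adjusted p of 0.995 in limma. Its second probe set, at 6.615, differed by -0.097, with 0.16 in experiment 2. Pde4d, the other gene of that subfamily among the 37, had 9.57, 9.77 and 9.85 in irradiated cultures and 9.58, 9.76 and 9.83 in controls. Its differences of -0.01, 0.01 and 0.02 had the smallest spread over experiments of the 37 genes (SD 0.015).

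Pde6d had 8.58, 8.58 and 8.66 in irradiated cultures, against 8.56, 8.38 and 8.42 in controls. The groups did not overlap, and the mean difference was 0.15 (SE 0.084, n = 3 pairs). Prkar1a had 11.60, 11.60 and 11.65 in irradiated cultures and 11.59, 11.51 and 11.57 in controls. That is a separation of 0.01 at the closest arrays, with a mean difference of 0.06 (SE 0.077). Its second probe set, at 10.86, differed by 0.093, with -0.02 in experiment 1 and overlapping groups. Pde1c, a calcium-dependent enzyme at 3.85, differed by 0.17 (SE 0.087), with overlapping groups.

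Prkacb had 9.78, 9.94 and 9.98 in irradiated cultures and 9.93, 9.98 and 10.06 in controls, a mean difference of -0.09 (SE 0.078) with overlapping groups. Prkar2a had 9.64, 9.71 and 9.73 in irradiated cultures and 9.69, 9.79 and 9.86 in controls, a mean difference of -0.087 (SE 0.077), again with overlap. Prkaca had 10.71, 10.55 and 10.52 in irradiated cultures and 10.53, 10.65 and 10.64 in controls. Its mean difference was -0.013 (SE 0.0925), and its second probe set differed by -0.09. Prkar1b was at 0.0033, with -0.21, 0.25 and -0.03 in the 3 experiments.

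Several bright genes had differences of opposite sign between experiments. Adcy6 had 9.75, 9.47 and 9.64 in irradiated cultures and 9.69, 9.94 and 9.71 in controls, which gives differences of 0.06, -0.47 and -0.07. Those of Pde3b were 0.05, -0.42 and 0.01. Prkar2b had 11.19, 10.79 and 10.97 in irradiated cultures and 10.78, 11.09 and 10.80 in controls, or 0.41, -0.30 and 0.17. All 3 probe sets of Prkar2b were below 0 in experiment 2 (-0.30, -0.40 and -0.59) and above 0 in experiments 1 and 3. In the same experiments the median difference of the 14 fat cell markers was 0.06, -0.61 and 0.01. Markers of some other cells ran the other way in experiment 2. Those of macrophages (median 0.03) and endothelial cells (0.02) stayed near 0 in it. The median was -0.03, 0.27 and 0.11 for 11 stromal markers, -0.30, 0.42 and 0.36 for 5 smooth muscle markers and -0.16, 0.55 and 0.29 for 3 osteoblast markers. The part of any of these in the differences was not tested. Without experiment 2, Adcy6 was at -0.005, Pde3b at 0.03 and Prkar2b at 0.29.

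Other genes had the opposite sign in experiment 2. Pde7b, specific for cyclic AMP, had 9.80, 9.89 and 9.63 in irradiated cultures and 10.09, 9.52 and 9.73 in controls, or differences of -0.29, 0.37 and -0.10. The other probe sets of Pde7b, at 5.15 and 5.08, lay below the median gene. They differed by 0.11 and -0.08 in experiment 2. The differences of Pde8a were -0.17, 0.27 and 0.13. Both genes, on their brightest probe sets, were below 0 in experiment 1 and above 0 in experiment 2. So were the stromal, smooth muscle and osteoblast medians. In experiment 3 those medians and Pde8a were above 0, while Pde7b was below it. The part of these cell types in the differences was not tested. In experiment 2 the difference was at or below -0.2 for 9 of the 37 genes and at or above 0.2 for 8, with a median of -0.04. The medians of experiments 1 and 3 were both 0.01.

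**Figure D4:**
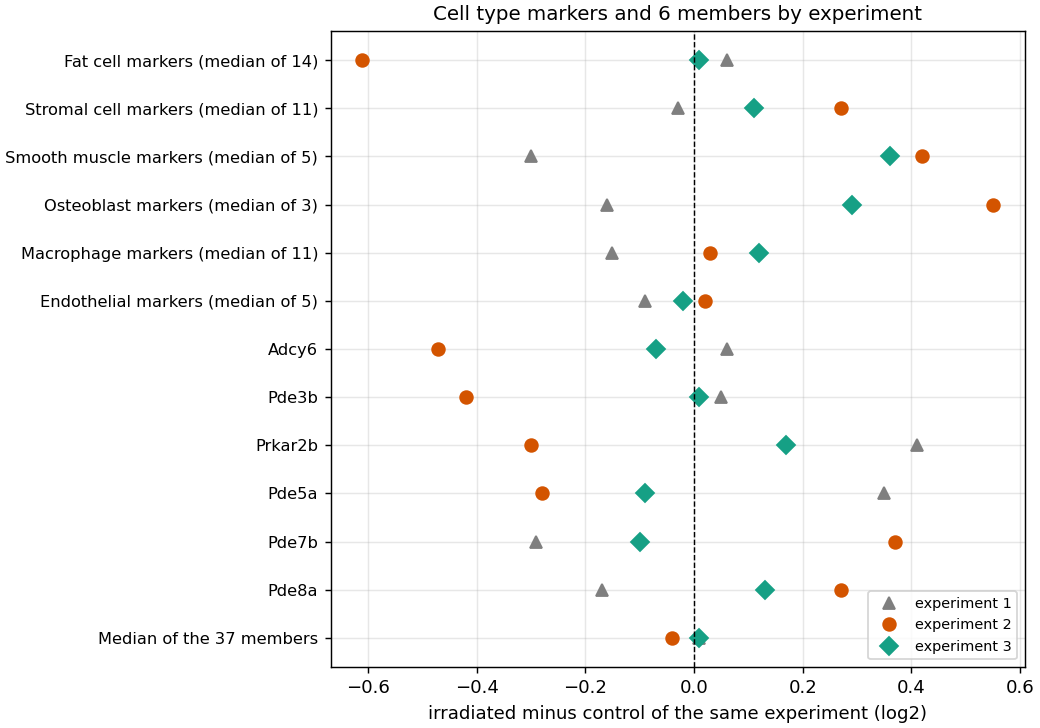
Irradiated minus control (x axis, log2 units) in the 3 experiments for the medians of 6 lists of cell type markers, for 6 genes picked after their values were seen, and for the median of the 37 genes. In experiment 2 (orange circles) the fat cell markers were at -0.61, Adcy6 at -0.47 and Pde3b at -0.42, while Pde7b was at 0.37, the smooth muscle markers at 0.42 and the osteoblast markers at 0.55.

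The widest spread over experiments was that of 2 dim genes. Pde8b had 5.11, 5.25 and 4.92 in irradiated cultures and 4.86, 4.84 and 5.61 in controls, and its differences of 0.25, 0.41 and -0.69 had an SD of 0.59. Pde10a, known from the striatum of the brain, had 5.92, 6.13 and 5.38 in irradiated cultures and 5.80, 5.65 and 6.04 in controls, with an SD of 0.58. For both the control of experiment 3, the array with the larger actin 3' to 5' difference, was the highest of the controls, and the irradiated array of experiment 3 was the lowest irradiated one. Their other probe sets varied in this: the second of Pde8b had 4.82, 5.17 and 4.89 in irradiated cultures and 4.96, 5.11 and 5.10 in controls. Control 3 was not the highest control on 2 of the other 4 of Pde10a. The irradiated array of experiment 3 had an actin difference of 0.50, and any part of RNA quality in these spreads was not tested. Without experiment 3 Pde8b and Pde10a were at 0.33 and 0.30, and limma's adjusted p was 0.965 for both.

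None of the remaining adenylate cyclases had an adjusted p under 0.05 in limma. Adcy3, one of the isoforms of fat cells, had 7.99, 7.88 and 7.87 in irradiated cultures and 7.98, 7.74 and 7.96 in controls, a mean difference of 0.02 (SE 0.084). Its 4 probe sets ranged from -0.12 to 0.18. Adcy7 was at -0.03 and Adcy5 at -0.0033, while Adcy2 (0.013) and Adcy9 (0.033) were slightly above 0. Adcy1 stood at -0.033, Adcy4 at 0.12, Adcy8 at -0.09 and Adcy10 at 0.063. Their groups overlapped in every case.

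Of the remaining phosphodiesterases, Pde2a was at 0.033 with 0.34 in experiment 3, Pde7a at -0.01 and Pde1a at -0.01. Pde1b was at -0.14, Pde3a at 0.11, Pde9a at 0.07 and Pde11a at 0.01. The retinal Pde6a, Pde6b and Pde6c were at -0.07, -0.13 and -0.073.

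Over all 96 probe sets limma called 0, and 2 had an unadjusted p under 0.05, against 3.77% of all probe sets. One was that of Pde4a. The other, likewise picked on its outcome, was a dim probe set of Pde5a, at a level of 5.32, with 5.48, 4.78 and 5.02 in irradiated cultures and 5.87, 5.34 and 5.43 in controls. Its differences were -0.39, -0.56 and -0.41, with a mean of -0.45 (SE 0.090, n = 3 pairs) and an adjusted p of 0.995 in limma. The brighter probe sets of Pde5a were at -0.0067 (level 8.11; 0.35, -0.28 and -0.09) and 0.01 (level 7.63; 0.55, -0.18 and -0.34).

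Genes around the 37 in the same pathway were taken from 10 textbook lists, from receptors to CREB targets. Of 128 listed symbols that are not among the 37, 109 were measured. Limma called 0 of the 109 in either direction at an adjusted p under 0.05. At an unadjusted p under 0.05 there were 0 higher and 3 lower: Il6 (-0.31), Hcn2 (-0.21) and Hcar1, which are named for that count after their values were seen. Over all 18193 genes 259 were higher and 344 lower at that p, 3.31% together, so 3 of 109 is not above the background. The median difference over the 109 was -0.0033, and 58 were at or above the median gene.

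Of the receptors coupled to the stimulatory G protein, 4 of 15 reached the median gene. The melanocortin receptor Mc2r was at -0.49 (-0.19, -1.65 and 0.36 in the 3 experiments), Mc5r at -0.07 and Calcrl at -0.043. Of those that lower cyclic AMP, 4 of 8 reached it, with the free fatty acid receptor Ffar2 at -0.56, Hcar2 at -0.35 and Lpar1 at 0.21. Hcar1, the lactate receptor of fat cells, was at -0.71 (-0.35, -1.34 and -0.43) on a level of 6.27. Mc2r, Ffar2, Hcar1 and Hcar2 were furthest below 0 in experiment 2, like the fat cell markers, whose part in this was not tested. Among G proteins and their regulators the arrestin Arrb1 was at -0.17, Rgs2 at -0.097 and Grk5 at 0.09.

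Downstream, 12 of 17 PKA anchoring proteins reached the median gene, with Akap9 at 0.13, Akap1 at -0.097 and Akap7 at -0.07. The PKA inhibitors Pkia and Pkig were at 0.12 and 0.09. Of 9 CREB family genes and coactivators 6 reached it, with Crtc3 at -0.097, Crem at 0.067 and Crebbp at -0.05. Of 19 CREB target genes 15 did, with a median difference of -0.02. After Pde4b the widest among those were Nr4a2 at -0.11 and Fos and Fosl2, both at -0.073. In the cyclic GMP branch 3 of 13 did, with Npr2 at 0.077, Prkg1 at 0.06 and Npr3 at -0.043. Of other cyclic AMP receivers, such as the exchange factor Rapgef3, 0 of 8 reached the median gene. Among export pumps and PKA substrates Lipe, hormone-sensitive lipase and also 1 of the fat cell markers, was at -0.42 (-1.17 in experiment 2), Abcc4 at -0.15 and Abcc5 at 0.087.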

How the data were processed

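The authors deposited 1 log2 value per probe set and array, made with RMA, per the submitters' processing notes, which also name affy and limma without versions. RMA corrects background, gives all arrays 1 distribution and summarises probes. The log base is not given in the sources used here and was taken from the range, 1.73 to 14.53. A change shared by all transcripts cannot be seen in such values. Of 45101 probe sets 64 controls were left out. The platform annotation gives 1 symbol for 34945, several for 932 and none for 9160. By Entrez identifier 34741 were found in a RefSeq gene table, and 0 of these had another symbol there.

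The test was limma 3.58.1 in R 4.3.3 (lmFit, eBayes), irradiated minus control with the experiment as a block, over 18193 genes with Benjamini-Hochberg adjustment, tested on simulated data first. The pairing comes from the series' design. Deviations of same-numbered arrays correlated at 0.15, -0.09 and -0.012 over genes. Genes described with all values were the brightest 8, those at or above the median of 1 sign throughout, the 4 with the widest spread, and 9 set by name. Pde4a and a dim probe set of Pde5a fall outside this rule and were added after their values were seen, for their unadjusted p. Of each pathway list up to 3 genes at or above the median gene with the largest difference are named. The members and lists were chosen with earlier results of these data known. Phosphodiesterase classes are textbook ones.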

Additional observations from a re-analysis of the deposited data

How the results depend on the processing

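Under 12 alternatives limma or the plain test called 0 of the 37 genes. These were a fit with no replicate block, the experiment as a random block, the mean over probe sets, all probe sets, genes at or above the median only, eBayes with a trend, no moderation, centred arrays, each experiment left out, and, added after seeing the data, no _s_at or _x_at probe sets. Genes called overall stayed at 0, except that the paired test with no moderation called 8, none of the 37. Their differences lay between -0.10 and 0.17, and that paired test gave each an unadjusted p of 5.65e-27 or lower. The values have 2 decimals, and equal differences in all 3 experiments leave no spread to test against. These 8 calls are therefore not read as changes. With no replicate block the median over the 37 genes was -0.0067, as with it, and it lay between -0.015 and 0.0067 under all 12. The count at an unadjusted p under 0.05 was 0 genes, against 1, without experiment 1 or without moderation, and 2 without experiment 3 (Pde4a and Pde8b). Without experiment 2, and among genes at or above the median only, the 1 gene was Pde4b instead of Pde4a. Of 144 alternative values of 12 named genes 7 changed sign: Adcy3 was at -0.005 with the mean over probe sets, and the other 6 came from leaving out an experiment. Those ranges were -0.205 to 0.03 for Pde3b, -0.02 to 0.2 for Pde8a, -0.04 to 0.075 for Adcy3, -0.11 to 0.04 for Prkaca and -0.065 to 0.29 for Prkar2b. The number of genes at or above the median level was 20 to 27 of 37 under its 10 alternatives, the highest with the median probe set as the mark. Dim probe sets limit what the low isoforms can show.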
